A study of Mus musculus with 12 samples.

Results

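Glycolysis and the response to low oxygen were followed through 39 genes in 12 mammary tumors of 9 mice. The genes were chosen by symbol from the 47593 genes with a value: 4 transporters of glucose and lactate, 17 enzymes of the glycolytic chain, 3 switches of glycolytic flux, 2 carbonic anhydrases, 2 secreted factors, 5 genes of the mitochondrial and stress response, 3 of protein folding and collagen hydroxylation and 3 of oxygen sensing. All 39 symbols were found, each in 1 row. The tumors arose in female mice with MADM RG;GR alleles on a mixed background, where MADM (mosaic analysis with double markers) is a system in which recombination between a pair of homologous chromosomes makes rare mutant cells in a heterozygous animal. Mutant alleles of Brca1 and p53 lay on one copy of chromosome 11, and Cre recombinase from an MMTV transgene, which acts mainly but not strictly in mammary epithelium, produced sparse GFP+ cells without either gene beside RFP+ wild-type cells and many heterozygous cells. No mouse was treated, and all tumors belong to 1 condition without a normal gland beside it, so that no value shows whether a gene was raised or lowered in a tumor. Tumors carry the numbers 1 to 12 of the labels, one mouse gave tumors 3 and 4, another gave tumors 10, 11 and 12, and 7 mice gave 1 tumor each.

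Cells take up glucose through transporters of the GLUT family, split it in the glycolytic chain to pyruvate, and either pass pyruvate to mitochondria or reduce it to lactate, which leaves through monocarboxylate transporters. When oxygen is low, prolyl hydroxylases stop marking the alpha subunits of hypoxia-inducible factor (HIF) for destruction, and the stabilised factor, paired with Arnt, raises the transcription of most glycolytic enzymes and of genes for vessel growth, acid export, mitochondrial removal and collagen processing. Mammary tumors are known for both programs, and proliferation, oncogenes and cell type also set the level of the same genes.

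Values are TPM, which divides the reads of a gene by its length and scales each tumor to a total near 1000000, so that genes within a tumor can be compared. The number of reads is not kept, so depth and counting error are unknown. Tests and differences used log2(TPM + 1), and each SD and each test refers to 9 mice, with the tumors of a mouse averaged beforehand. Every one of the 39 genes had a mean of 1 TPM or more and 38 had a mean of 10 TPM or more, the exception being Slc2a3. Together they held between 0.619% of the total in tumor 2 and 1.48% in tumor 3, with 0.699% in tumor 9.

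The label of mammary tumor was set beside marker genes before any result. The summed TPM of 6 epithelial genes was 1.38 in tumor 2, with Epcam at 0, and 154 in tumor 8, against 2570 to 7610 in the other 10 tumors. Tumor 2 had 4662 TPM over 5 B lymphocyte genes, and the next highest tumor, 9, had 333. Tumor 8 had 4540 TPM over 8 mesenchymal genes and 188 TPM over 6 endothelial genes, both the highest of the 12. Over 5 macrophage genes the tumors had 512 TPM (tumor 2) to 4514 TPM (tumor 8), over 5 T lymphocyte genes 3.26 (tumor 1) to 81.7 TPM (tumor 9), over 5 adipocyte genes 12.4 (tumor 1) to 491 TPM (tumor 4), over 5 skeletal muscle genes 2.89 (tumor 10) to 365 TPM (tumor 3) and over 5 erythrocyte genes 136 (tumor 7) to 868 TPM (tumor 4). Tumor 2 therefore lacked the defining markers of its labelled tissue, and it was kept in every mean, with values given without it where a result turned on it. A tumor piece mixes cell types, so fewer cells of a type and less RNA per cell cannot be told apart in any value given here. What part these markers had in the values of the 39 genes was not tested.

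The HIF dimer binds a short core in DNA, ACGTG or GCGTG. The 250 bases before the transcription start were read from RefSeq (GRCm38.p6) for the 35 genes that matched by symbol, and the 10 with several starts were represented by the most upstream one. At least 1 core on either strand was present in 27 of the 35 (77.1%), against 10442 of 27025 promoters of all genes (38.6%) and 4483 of 7665 promoters of genes with a mean of 10 TPM or more (58.5%). A CACGTG palindrome holds ACGTG on both strands and was counted as 2. The ACGTG form was found in 17 of 35 promoters (48.6%), against 16.5% of all and 22.5% of the more abundant genes, and the GCGTG form in 19 of 35 (54.3%), against 28.3% and 47.0%. At least 2 cores stood in 18 of 35 (51.4%), against 16.8% and 28.8%. Ldha and Bnip3 had the most, with 5 each, whereas Pkm, Aldoa, Tpi1, Gpi1, Hk1, Eno2, Car12 and Vegfa had none in this window. A match describes the letters only, not a bound site. The promoters of 4 genes are shown, read 5′ to 3′ in the direction of the gene with the cores of either strand in capitals: Slc2a1 (chr4:119108495-119108744, plus strand) and Vegfa (chr17:46032378-46032627, minus strand), whose levels are compared across mice, and Car9 (chr4:43506776-43507025, plus strand) and Ankrd37 (chr8:45999851-46000100, minus strand), whose levels spanned 52.6-fold and 93.3-fold over the 12 tumors and 27.1-fold and 3.06-fold without tumors 2 and 9.
Slc2a1: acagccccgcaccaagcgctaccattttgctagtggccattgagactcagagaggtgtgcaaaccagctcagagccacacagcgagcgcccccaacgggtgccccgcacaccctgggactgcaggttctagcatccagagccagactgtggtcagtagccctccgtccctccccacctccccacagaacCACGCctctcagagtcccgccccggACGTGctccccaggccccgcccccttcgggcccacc
Vegfa: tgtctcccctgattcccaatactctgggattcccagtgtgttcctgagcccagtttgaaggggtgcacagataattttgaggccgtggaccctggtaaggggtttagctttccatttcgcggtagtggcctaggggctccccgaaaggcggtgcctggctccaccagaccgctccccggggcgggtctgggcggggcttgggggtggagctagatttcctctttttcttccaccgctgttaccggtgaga
Car9: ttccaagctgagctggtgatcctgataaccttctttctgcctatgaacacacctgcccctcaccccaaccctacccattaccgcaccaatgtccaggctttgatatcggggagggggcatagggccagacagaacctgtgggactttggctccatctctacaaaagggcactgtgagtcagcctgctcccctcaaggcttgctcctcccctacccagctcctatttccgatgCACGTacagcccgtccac
Ankrd37: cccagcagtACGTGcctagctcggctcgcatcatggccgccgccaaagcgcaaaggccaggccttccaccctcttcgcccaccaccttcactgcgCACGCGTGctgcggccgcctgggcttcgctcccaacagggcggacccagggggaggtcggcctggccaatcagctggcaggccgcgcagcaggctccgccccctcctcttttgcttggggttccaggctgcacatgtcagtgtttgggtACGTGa
Slc2a1 held 2 cores, the nearest 36 bases before the start, Car9 held 1 core 18 bases before it, and Ankrd37 held 4, the nearest 6 bases before it. These starts are those of RefSeq, and the gene bounds printed below are those of GENCODE. By those bounds the windows of Slc2a1 and Car9 reach past the start of the gene, and that of Ankrd37 lies inside it.

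The most abundant glucose transporter transcript was Slc2a1 (GLUT1, the basal glucose transporter; ENSMUSG00000028645, chromosome 4 from 119108711 to 119137983). Its level was lowest in tumor 2 at 13.3 TPM, had a median of 112 TPM and reached 324 TPM in tumor 1, with a mean of 131 ± 85.3 TPM (SD, n = 9 mice). The next lowest tumor had 71.6 TPM, so tumor 2 lay apart from all others. Slc2a3 (GLUT3, a high-affinity transporter known from neurons and white blood cells; chromosome 6 from 122727809 to 122801640) had a median of 1.48 TPM, from 0.897 TPM in tumor 3 up to 20.6 TPM in tumor 2, where it was 8.90-fold above the median of the other mice. Slc2a1 exceeded Slc2a3 by 4.92 ± 2.28 on the log2(TPM + 1) scale in 8 of 9 mice (two-sided exact permutation of the signs, p = 0.0078, Benjamini-Hochberg adjusted p = 0.011 over 13 contrasts). Tumor 2 was the exception with a difference of -0.59, and Slc2a3 made up 60.8% of the summed level of the pair there and at most 4.00% in any other tumor. Without the mice of tumors 2 and 9 the difference was 5.66 ± 1.10 over 7 mice.

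For phosphorylation of glucose, the first step of the chain, Hk1 was more abundant than Hk2, the isoform known as a HIF target and as the main hexokinase of many cancers. Hk1 (chromosome 10 from 62268855 to 62379908) had 24.7 TPM in tumor 2, a median of 95.4 TPM and 368 TPM in tumor 9, whereas Hk2 (chromosome 6 from 82725025 to 82774454) had 5.80 TPM in tumor 2, a median of 23.0 TPM and 55.8 TPM in tumor 1. Hk2 minus Hk1 was -2.25 ± 1.43 on the log2(TPM + 1) scale and negative in 9 of 9 mice (two-sided exact permutation of the signs, p = 0.0039, adjusted p = 0.0073). That p is the smallest the test can give with 9 mice. Hk2 took 37.3% of the summed level in tumor 1, the highest share, and 1.65% in tumor 9, the lowest. Without the mice of tumors 2 and 9 the difference was -1.80 ± 0.72 over 7 mice.

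The phosphofructokinases, which commit the sugar to glycolysis, were a mixture. Pfkl (liver type) had 122 ± 39.8 TPM, Pfkp (platelet type) 99.4 ± 56.0 TPM and Pfkm (muscle type) 37.1 ± 14.0 TPM (SD, n = 9 mice). Pfkl was above Pfkm in 9 of 9 mice, with a log2(TPM + 1) difference of 1.71 ± 0.83 (two-sided exact permutation of the signs, p = 0.0039, adjusted p = 0.0073). Pfkp and Pfkl did not separate beyond the spread between mice, with a difference of -0.50 ± 0.80 and Pfkp higher in 2 of 9 mice (same exact procedure, p = 0.078, adjusted p = 0.10). This depended on the mouse of tumor 1, without which the difference was -0.64 (same exact procedure over 8 mice, adjusted p = 0.041). Pfkl was the most abundant of the 3 in 9 of 12 tumors and Pfkp in 3. The share of Pfkp was 58.9% in tumor 10 and 12.5% in tumor 9, where Pfkm had its highest share at 27.7%.

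A pair of regulators acts on that step. Pfkfb3 (chromosome 2 from 11471433 to 11554077), which makes the activator of phosphofructokinase, had 22.2 TPM in tumor 6, a median of 45.9 TPM and 189 TPM in tumor 9, where the next highest tumor had 65.1 TPM. Pfkfb4, a related enzyme, had 2.38 TPM in tumor 2, a median of 14.4 TPM and 20.8 TPM in tumor 10. Pfkfb3 was above Pfkfb4 in 9 of 9 mice, with a log2(TPM + 1) difference of 1.97 ± 0.99 (two-sided exact permutation of the signs, p = 0.0039, adjusted p = 0.0073). Pdk1, the kinase that shuts pyruvate out of the mitochondrial dehydrogenase, had 38.6 ± 16.0 TPM (SD, n = 9 mice), from 19.4 TPM in tumor 12 up to 65.9 TPM in tumor 7.

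By the level of each gene's own row, the middle and lower chain held the most abundant of the 39 genes. Pkm (pyruvate kinase of muscle and most tumors; chromosome 9 from 59656368 to 59679375) led with 1970 ± 982 TPM (SD, n = 9 mice), 361 TPM in tumor 9, a median of 1890 TPM and 3288 TPM in tumor 1. Aldoa (aldolase A) followed with 1407 ± 490 TPM, Eno1 (enolase 1) with 1203 ± 430 TPM and Ldha (the lactate dehydrogenase subunit that favours lactate) with 1113 ± 379 TPM. Neighbours in this order of 4 means differed by less than the larger of their SDs. A value per gene does not separate the M1 and M2 products of Pkm. Pgk1 (phosphoglycerate kinase, the first step that makes ATP) had 701 ± 318 TPM, Tpi1 (triose phosphate isomerase) 658 ± 236 TPM, Gpi1 (glucose phosphate isomerase) 309 ± 67.1 TPM and Pgam1 (phosphoglycerate mutase) 309 ± 135 TPM. Gpi1 was among the steadiest of the 39 genes, with a range of 2.11-fold over the 12 tumors, from 241 TPM in tumor 1 up to 509 TPM in tumor 3. Tumor 9 had the lowest level of Pkm, Pgk1, Tpi1, Pgam1 and Ldha but not of Aldoa (1706 TPM), Eno1 (969 TPM) or Gpi1 (319 TPM).

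At the aldolase, enolase and lactate dehydrogenase steps, 1 gene of the pair outweighed the other. Aldoa exceeded Aldoc (the brain aldolase; 64.4 ± 52.2 TPM) by 4.86 ± 1.07, Eno1 exceeded Eno2 (the neuronal enolase; 23.0 ± 19.5 TPM) by 5.93 ± 1.29, and Ldha exceeded Ldhb (the subunit of heart, which favours pyruvate; 52.1 ± 34.3 TPM) by 4.62 ± 1.41 on the log2(TPM + 1) scale. Each of these differences was positive in 9 of 9 mice (two-sided exact permutation of the signs, p = 0.0039, adjusted p = 0.0073). The minor isoforms spanned wider fold ranges over the tumors than the major ones. Ldhb ranged from 9.23 TPM in tumor 8 to 152 TPM in tumor 12 (median 54.4 TPM) and from 0.882% to 18.2% of the summed lactate dehydrogenase level, with the highest share in tumor 9, where Ldha was lowest. Aldoc ranged from 7.67 TPM in tumor 2 to 176 TPM in tumor 5 (median 59.4 TPM), and its highest share of the pair was 15.5% in tumor 12. Eno2 ranged from 5.46 TPM in tumor 10 to 64.4 TPM in tumor 8 (median 11.6 TPM) and made up at most 5.34% of the pair.

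**Figure D1:**
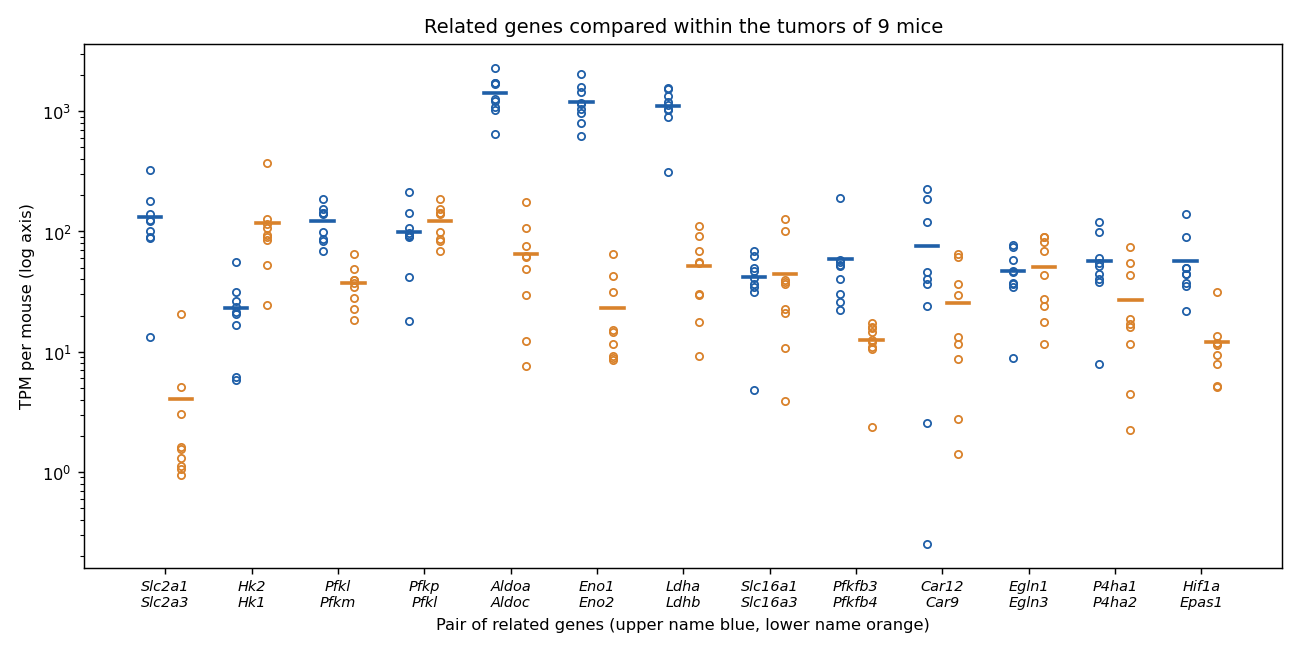
TPM per mouse on a log axis for the 13 pairs of related genes, with 1 open circle per mouse (n = 9, tumors of a mouse averaged) and a bar at the mean; the upper gene of each pair is blue and the lower orange. Aldoa, Eno1 and Ldha lie above their partners in all 9 mice and Hk2 lies below Hk1 in all 9, while Slc16a1 and Slc16a3, or Egln1 and Egln3, overlap.

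Gapdh (the glyceraldehyde phosphate dehydrogenase; ENSMUSG00000057666, chromosome 6 from 125161715 to 125166467), which stands between Tpi1 and Pgk1 in the chain, was listed below both neighbours in every tumor except tumor 9. It had 32.2 TPM in tumor 10, a median of 49.4 TPM and 881 TPM in tumor 9, and the next highest values were 297 TPM in tumor 5 and 176 TPM in tumor 1. In the GENCODE annotation of GRCm38, 142 other loci have a transcript of at least 200 bases that matched the Gapdh transcript at 90% identity or more over 80% or more of its length, and 133 of them are annotated as processed pseudogenes. At 99% identity or more, 22 processed pseudogenes and 1 transcribed processed pseudogene were left. A mean of 1 TPM or more was listed for 59 of these loci. Their summed level was 2108 to 14006 TPM, so the row named Gapdh held only 1.11% to 8.77% of the sum of Gapdh and its copies. The most abundant copy, Gm13394, had a mean of 1321 TPM at 99.9% identity. The sum spanned 6.95-fold over the tumors, from 2141 TPM in tumor 2 up to 14887 TPM in tumor 9, against 27.4-fold for the Gapdh row alone. The sum exceeded that of Pkm with its copies in every tumor except tumor 8 (2758 against 3172 TPM). Tumor 9 was highest on both counts, and the next highest sum was 5775 TPM in tumor 7. Against the median of the other mice, the Gapdh row was 16.4-fold higher in tumor 9, 5.53-fold in tumor 5 and 3.28-fold in tumor 1, and the sum stood at 4.21, 0.812 and 1.33 times that median. How reads were shared among the copies is not known from these files, so the Gapdh row is uncertain as a level and as a reference.

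**Figure D2:**
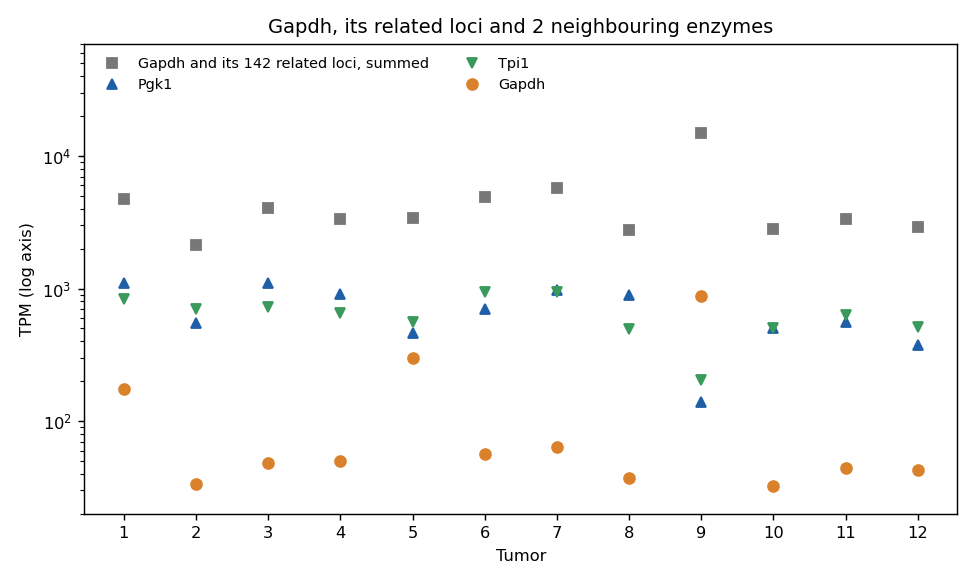
TPM on a log axis in each of the 12 tumors for Gapdh alone, for Gapdh summed with the 142 loci that match it at 90% identity or more, and for the neighbouring enzymes Tpi1 and Pgk1. The Gapdh row lies below both enzymes in 11 tumors and above both in tumor 9 (881 TPM against 203 and 140 TPM), whereas the sum lies above them in every tumor.

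Other members had fewer copies. Eno1 held 46.3% to 74.5% of the sum with its 3 copies, which include Eno1b and the pseudogene Gm4735, Pgam1 69.0% to 71.5%, Pgk1 79.0% to 80.1% and Higd1a 78.1% to 86.2%. Tpi1 and Pkm held over 93% of their sums, Ldha and Aldoa over 99%. Exons of another gene overlapped those of 14 members, in 13 of them on the opposite strand. Examples are Ankrd37, of whose exon bases Lrp2bp covers 22.7%, and Car9, of which the antisense gene Gm12454 covers 9.29%. The library kit keeps the strand, but the strand setting of the quantification is not given in the sources used here.

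Lactate and protons leave the cell through Slc16a1 (MCT1) and Slc16a3 (MCT4, the exporter known as a HIF target). Slc16a1 had 41.9 ± 18.6 TPM and Slc16a3 44.4 ± 41.6 TPM (SD, n = 9 mice). Slc16a1 was lowest in tumor 9 at 4.78 TPM, had a median of 38.4 TPM and was highest in tumor 2 at 68.9 TPM, and the other 10 tumors lay between 31.6 and 61.9 TPM. Slc16a3 was lowest in tumor 9 at 3.91 TPM, had a median of 27.4 TPM and was highest in tumor 1 at 126 TPM. The difference of 0.29 ± 1.24 on the log2(TPM + 1) scale lay within the spread between mice, with Slc16a1 higher in 6 of 9 (two-sided exact permutation of the signs, p = 0.52, adjusted p = 0.56). Which exporter led differed by tumor: Slc16a3 held 74.5% of the pair in tumor 8 and 13.5% in tumor 2.

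The membrane carbonic anhydrases, which buffer the acid that glycolysis exports, had the highest SDs of log2(TPM + 1) over 9 mice. By fold range over the 12 tumors, Ankrd37 (93.3-fold) lay between Car12 and Car9 (52.6-fold). Car9 (a classical marker of hypoxia; ENSMUSG00000028463, chromosome 4 from 43506966 to 43513729) had 1.41 TPM in tumor 2, a median of 17.1 TPM and 74.2 TPM in tumor 3. Tumors 3, 6 and 4 were highest at 74.2, 61.2 and 54.7 TPM, and tumors 2, 7 and 10 were lowest. Car12 (ENSMUSG00000032373, chromosome 9 from 66713686 to 66766845) had 0.253 TPM in tumor 9, a median of 38.6 TPM and 257 TPM in tumor 3, a range of 1019-fold. Without tumors 2 and 9 the range of Car12 was 14.5-fold and that of Car9 27.1-fold. Both genes were high in tumors 1, 3 and 4, whereas in tumor 7 Car12 had 120 TPM and Car9 2.74 TPM. Car12 minus Car9 was 1.04 ± 2.33 on the log2(TPM + 1) scale and positive in 7 of 9 mice (two-sided exact permutation of the signs, p = 0.23, adjusted p = 0.28). Without the mouse of tumor 9 it was 1.60 (same exact procedure over 8 mice, adjusted p = 0.041).

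Both secreted factors spanned a wide range. Vegfa (the main growth factor of blood vessels; ENSMUSG00000023951, chromosome 17 from 46016993 to 46032369) had 41.7 TPM in tumor 2, a median of 178 TPM and 392 TPM in tumor 1, with a mean of 170 ± 104 TPM (SD, n = 9 mice). Adm (adrenomedullin, a vasodilator) had 1.68 TPM in tumor 2, a median of 18.9 TPM and 57.3 TPM in tumor 3, with a mean of 23.3 ± 16.6 TPM. Tumor 2 was lowest for both genes.

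Vegfa and Slc2a1 varied together across mice. Over 9 mice Pearson's r of their log2(TPM + 1) levels was 0.89 (exact permutation of the pairings, two-sided, p = 0.00039, adjusted p = 0.0023 over 6 relations) and Spearman's rho was 0.87 (same exact procedure, p = 0.0045, adjusted p = 0.018). Without the 2 mice farthest from the median of Vegfa, those of tumors 2 and 9, r was 0.93 over 7 mice (same exact procedure, p = 0.0038, adjusted p = 0.023) and rho 0.82 (same exact procedure, p = 0.034, adjusted p = 0.20), so rho was no longer past the threshold after adjustment. With the mice of tumors 1 and 7 also left out, r was 0.76 over 5 mice (same exact procedure, p = 0.13). Leaving out 1 mouse at a time gave 0.85 to 0.96. Tumor 1 had the highest and tumor 2 the lowest level of both genes. The promoter windows printed above hold 2 HIF cores for Slc2a1 and none for Vegfa.

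**Figure D3:**
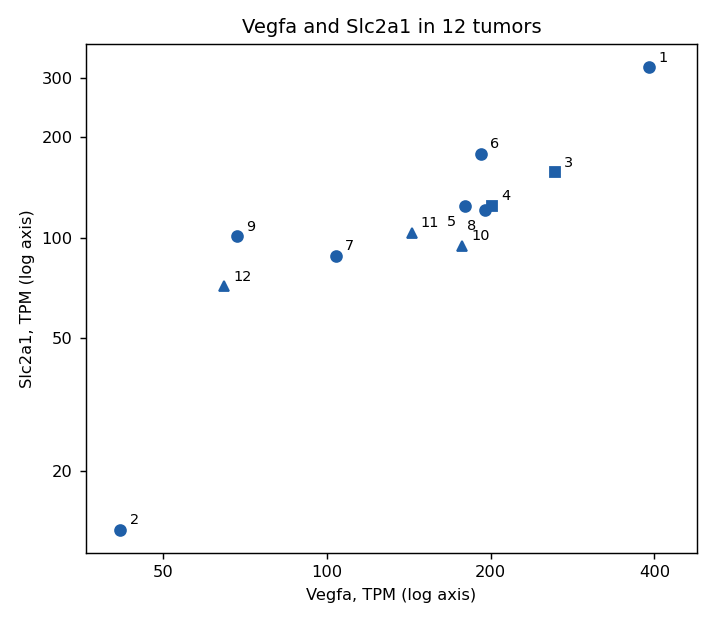
Vegfa against Slc2a1 in TPM, both on log axes, with 1 point per tumor labelled by its number; squares are the tumors of one mouse, triangles those of another, circles mice with 1 tumor. Tumor 1 is at the upper right at 392 and 324 TPM, tumor 2 at the lower left at 41.7 and 13.3 TPM, and the others lie between them.

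Other relations rested on few mice. Vegfa with Adm had r = 0.82 over 9 mice (exact permutation of the pairings, two-sided, p = 0.0079, adjusted p = 0.024) and rho = 0.85 (same exact procedure, p = 0.0061, adjusted p = 0.018), but r = 0.46 without the mice of tumors 2 and 9 (same exact procedure, p = 0.30). With 1 of these mice left out, r was 0.64 without that of tumor 2 and 0.83 without that of tumor 9 (same exact procedure, adjusted p = 0.13 and 0.069). Pgk1 with Ldha had r = 0.87 (same exact procedure, p = 0.019, adjusted p = 0.038) and rho = 0.55 (same exact procedure, p = 0.13, adjusted p = 0.27). It rests on tumor 9, without whose mouse r was 0.38, and r was 0.43 (same exact procedure, p = 0.31) without the 2 mice farthest in Pgk1, those of tumors 9 and 1. Mki67, a proliferation gene, was set beside Ldha and gave r = 0.55 and rho = 0.35 (same exact procedure, p = 0.13 and 0.36, adjusted p = 0.19 and 0.54), with r = 0.66 (same exact procedure, p = 0.11) without the 2 mice farthest in Mki67. It moved both ways with 1 mouse left out: r was 0.77 without the mouse of tumor 2 (same exact procedure over 8 mice, adjusted p = 0.022) and 0.025 without that of tumor 9 (same exact procedure over 8 mice, p = 0.95). Egln3 with Ndrg1, both known HIF targets, gave r = -0.07 and rho = 0.15 (same exact procedure, p = 0.85 and 0.71, adjusted p = 0.85 for both), with r = 0.32 without the 2 mice farthest in Egln3 (same exact procedure, p = 0.50).

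The oxygen sensors did not show 1 order. Egln1 (PHD2, the main HIF prolyl hydroxylase) had 8.94 TPM in tumor 9, a median of 45.1 TPM and 77.7 TPM in tumor 1. Egln3 (PHD3, itself induced by HIF) had 8.18 TPM in tumor 10, a median of 45.0 TPM and 101 TPM in tumor 3, and tumors 9, 2 and 4 followed at 89.3, 82.2 and 77.7 TPM. Their difference was 0.05 ± 1.75 on the log2(TPM + 1) scale (two-sided exact permutation of the signs, p = 0.94, adjusted p = 0.94), with Egln1 higher in 4 mice and lower in 5. In tumor 9 Egln1 was lowest of all tumors while Egln3 was second highest. Epas1 (HIF2-alpha, the subunit known from endothelial cells) had 5.07 TPM in tumor 7, a median of 11.2 TPM and 31.7 TPM in tumor 9. Hif1a, which is not one of the 39 genes, had 56.9 ± 36.2 TPM (SD, n = 9 mice) and exceeded Epas1 by 2.15 ± 1.16 on the log2(TPM + 1) scale in 8 of 9 mice (same exact procedure, p = 0.0078, adjusted p = 0.011). Tumor 9 was the exception at -0.52, with 21.7 TPM of Hif1a. HIF alpha subunits are controlled mainly by protein stability, which these values do not measure. Epas1 did not follow the vessel marker Pecam1: r was -0.15 and rho -0.03 over 9 mice (exact permutation of the pairings, two-sided, p = 0.69 and 0.95, adjusted p = 0.83 and 0.95), and r was -0.41 without the 2 mice farthest in Pecam1 (same exact procedure, p = 0.34).

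Among the mitochondrial and stress genes, Ndrg1 (a growth-arrest and stress gene) was the most abundant at 327 ± 147 TPM (SD, n = 9 mice), from 133 TPM in tumor 2 up to 614 TPM in tumor 9. Ddit4 (REDD1, an inhibitor of mTORC1) had 144 ± 44.5 TPM, from 50.1 TPM in tumor 9 up to 199 TPM in tumor 5. Bnip3 (a receptor for the removal of mitochondria) had 66.2 ± 29.3 TPM, from 17.9 TPM in tumor 12 up to 118 TPM in tumor 8. Higd1a (a mitochondrial survival factor) was steady, with 38.0 ± 10.2 TPM and a range of 2.19-fold. Ankrd37 (an ankyrin repeat protein known as a HIF target; ENSMUSG00000050914, chromosome 8 from 45996902 to 46005707) had 2.95 TPM in tumor 9, a median of 21.5 TPM and 275 TPM in tumor 2, where the next highest tumor had 31.0 TPM. Ankrd37 thus stood highest in the tumor in which Slc2a1, Car9, Adm and Vegfa were lowest.

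The genes of protein folding and collagen hydroxylation followed. P4ha1, a catalytic subunit of collagen prolyl hydroxylase, had 7.86 TPM in tumor 9, a median of 51.9 TPM and 119 TPM in tumor 8, and P4ha2, the other such subunit here, had 2.25 TPM in tumor 2, a median of 16.5 TPM and 74.9 TPM in tumor 8. P4ha1 was above P4ha2 in 9 of 9 mice, with a log2(TPM + 1) difference of 1.38 ± 1.02 (two-sided exact permutation of the signs, p = 0.0039, adjusted p = 0.0073). Tumor 8 was highest for both subunits and also had the highest sum of mesenchymal markers (4540 TPM). Ero1l, an oxidase that drives disulfide formation in the endoplasmic reticulum, had 60.8 ± 30.0 TPM (SD, n = 9 mice), from 24.6 TPM in tumor 9 up to 116 TPM in tumor 1.

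The spread between mice was described for all 39 genes. Their median SD of log2(TPM + 1) over 9 mice was 0.97, against 0.57 over the 16802 genes with a mean of 1 TPM or more and 0.51 over the 10781 genes with a mean of 10 TPM or more. Without the mice of tumors 2 and 9 the first 2 medians were 0.52 and 0.41. By role, the median SD was 2.1 for the 2 carbonic anhydrases, 1.17 for the 4 transporters, 1.12 for the 2 secreted factors, 1.07 for the 3 folding and collagen genes, 0.93 for the 17 enzymes, 0.88 for the 3 oxygen sensing genes, 0.74 for the 3 flux switches and 0.65 for the 5 mitochondrial and stress genes. Over the 7 mice without those of tumors 2 and 9 these medians were, in the same order of roles, 1.40, 0.63, 0.68, 0.59, 0.44, 0.49, 0.55 and 0.39. The carbonic anhydrases were the most variable and the mitochondrial and stress genes the least in both settings, and the order between them changed.

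Each tumor was then compared with the median of the other mice, and a gene was counted where it lay 2-fold or more away on the log2(TPM + 1) scale. One tumor has no replicate, so these counts carry no test. They are read against the share of all 16802 genes that were as far away in the same direction. In tumor 1, 12 of 39 genes were higher (30.8%, against 5.64% of all genes) and 2 lower (4.62% of all genes). The 12 included Slc16a3, Slc2a1, Vegfa, Hk2, Pfkp and Ero1l, each at the highest level of the 12 tumors, with Slc16a3 4.69-fold and Slc2a1 2.92-fold above the other mice. They also included the Gapdh row (3.28-fold, but 1.33-fold for the sum with its copies). Egln3 was 4.44-fold lower there. Epithelial markers were higher for 3 of 6 in tumor 1, with the highest sum of the 12 tumors (7610 TPM), and its mesenchymal sum of 1691 TPM was the highest after tumor 8, with 2 of 8 higher and 2 lower. Lower were 3 of 5 adipocyte, 2 of 5 B lymphocyte and 2 of 5 T lymphocyte markers, with sums of 12.4, 11.6 and 3.26 TPM. What part these had was not tested.

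In tumor 2, 17 of 39 genes were lower (43.6%, against 26.1% of all genes) and 3 higher (13% of all genes). Car12 was 12.3-fold lower, Slc2a1 8.64-fold, Car9 8.60-fold, Adm 7.42-fold and Aldoc 7.23-fold, and Ankrd37 was 11.4-fold, Slc2a3 8.90-fold and Egln3 2.49-fold higher. Of the 17 enzymes, 8 were lower and none was higher. This was the tumor with 1.38 TPM of epithelial and 4662 TPM of B lymphocyte markers. Also lower were 4 of 6 endothelial, 4 of 5 macrophage and 2 of 5 adipocyte markers. T lymphocyte markers were lower for 3 of 5 and higher for 1, and mesenchymal markers lower for 4 of 8 and higher for 3. Skeletal muscle markers were higher for 3 of 5. What part these had was not tested.

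In tumor 9, 17 of 39 genes were lower (43.6%, against 16.6% of all genes) and 7 higher (17.9%, against 13.1%). Car12 was 35.1-fold lower, Slc16a1 7.74-fold, Slc16a3 7.09-fold, Ankrd37 6.34-fold and P4ha1 6.12-fold, and all 3 folding and collagen genes were among the 17. The 7 higher genes were Gapdh (16.4-fold, and 4.21-fold for the sum with its copies), Pfkfb3 (4.08-fold), Hk1 (3.98-fold), Eno2 (3.11-fold), Epas1 (2.90-fold), Egln3 (2.71-fold) and Ndrg1 (2.11-fold). Genes of the chain went both ways in this tumor, with Hk1 and Pfkfb3 at their highest level and Pfkp, Tpi1, Pgk1, Pgam1, Pkm and Ldha at their lowest of the 12 tumors. Its epithelial markers summed to 2570 TPM, the lowest after tumors 2 and 8 but near the 2599 TPM of tumor 7. Of them, 3 of 6 were lower by 2-fold or more and 1 was higher. Its mesenchymal markers summed to 234 TPM, with 4 of 8 lower by 2-fold or more and 1 higher. All 5 T lymphocyte, all 5 B lymphocyte and all 5 adipocyte markers were higher, with sums of 81.7, 333 and 199 TPM. What part these had was not tested.

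In tumors 3 and 4, of one mouse, 8 (20.5%, against 8.83% of all genes) and 5 genes (12.8%, against 8.5%) were higher and none was lower (4.82% and 2.69% of all genes). The 5 genes of tumor 4, Car12, Car9, Adm, P4ha2 and Egln3, were also among the 8 of tumor 3, at 4.91-fold to 2.36-fold and 6.54-fold to 2.57-fold. In tumors 3 and 4 all 5 skeletal muscle markers were also 2-fold or more higher, with sums of 365 and 245 TPM against at most 62.8 TPM elsewhere, and adipocyte markers were higher for 4 of 5 and 5 of 5, with sums of 179 and 491 TPM. The adipocyte sums of tumors 5 and 9 were 244 TPM (4 of 5 higher) and 199 TPM. All 5 erythrocyte markers were higher in tumor 4, with 868 TPM. What part these had was not tested. Tumor 6 shared Car9 (4.97-fold), Adm (2.74-fold) and Egln3 (2.1-fold), its 3 higher genes (4.75% of all genes), and had 1 lower gene, Pfkfb3 (3.78% of all genes). In tumor 5, Gapdh (5.53-fold as a row, but 0.812 times the other mice for the sum with its copies), Aldoc (3.19-fold), Car9 (2.43-fold) and Ldhb (2.22-fold) were higher (5.1% of all genes) and none of the 39 was lower (2.28%).

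Tumor 7 had 2 higher genes (4.95% of all genes), Car12 (3.05-fold) and Pdk1 (2.18-fold), and 5 lower ones (12.8%, against 4.32%), led by Car9 (5.54-fold) and Ldhb (3.02-fold). Tumor 8 had 6 higher genes (15.4%, against 11.2% of all genes), led by Eno2 (4.67-fold), P4ha2 (4.33-fold) and Slc16a3 (3.77-fold), and 4 lower ones (10.3%, against 8.38%), Ldhb (5.49-fold), Aldoc (4.76-fold), Egln3 (2.98-fold) and Car9 (2.15-fold). Shares in tumor 8 were thus near those of all genes. All 6 epithelial markers were lower and 7 of 8 mesenchymal markers higher there, with sums of 154 and 4540 TPM. Also higher in tumor 8 were 4 of 6 endothelial (188 TPM), 4 of 5 macrophage (4514 TPM) and all 5 T lymphocyte markers (65.4 TPM). Adipocyte markers were lower for 3 of 5 in tumors 6 and 7 (14.4 and 17.9 TPM) and higher for 3 of 5 in tumor 10 (145 TPM). What part these had was not tested.

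In tumors 10, 11 and 12, of another mouse, the median difference of the 39 genes from the other mice was -0.38, -0.16 and -0.55 on the log2 scale, against 0.05, 0.03 and 0.08 for all genes. Tumor 10 had 6 lower genes (15.4%, against 2.32% of all genes), led by Egln3 (6.11-fold) and Car9 (3.16-fold), and 2 higher (4.49%), Slc16a3 (2.21-fold) and Pfkp (2.05-fold). Tumor 12 had 7 lower genes (17.9%, against 2.21%), led by Bnip3 (3.90-fold) and Vegfa (2.84-fold), and 2 higher (6.53%), Ldhb (3.67-fold) and Aldoc (2.86-fold). Tumor 11 had 2 lower (1.99%), Car12 (2.35-fold) and Pfkfb3 (2.01-fold), and 2 higher (4.18%), again Ldhb (3.17-fold) and Aldoc (2.27-fold). Without the mice of tumors 2 and 9 the count in tumor 1 was 11 higher (4.01% of all genes in that setting), in tumor 3 it was 7 higher (7.65%), in tumor 10 it was 8 lower (2.93%) and in tumor 12 it was 10 lower (3.24%).

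**Figure D4:**
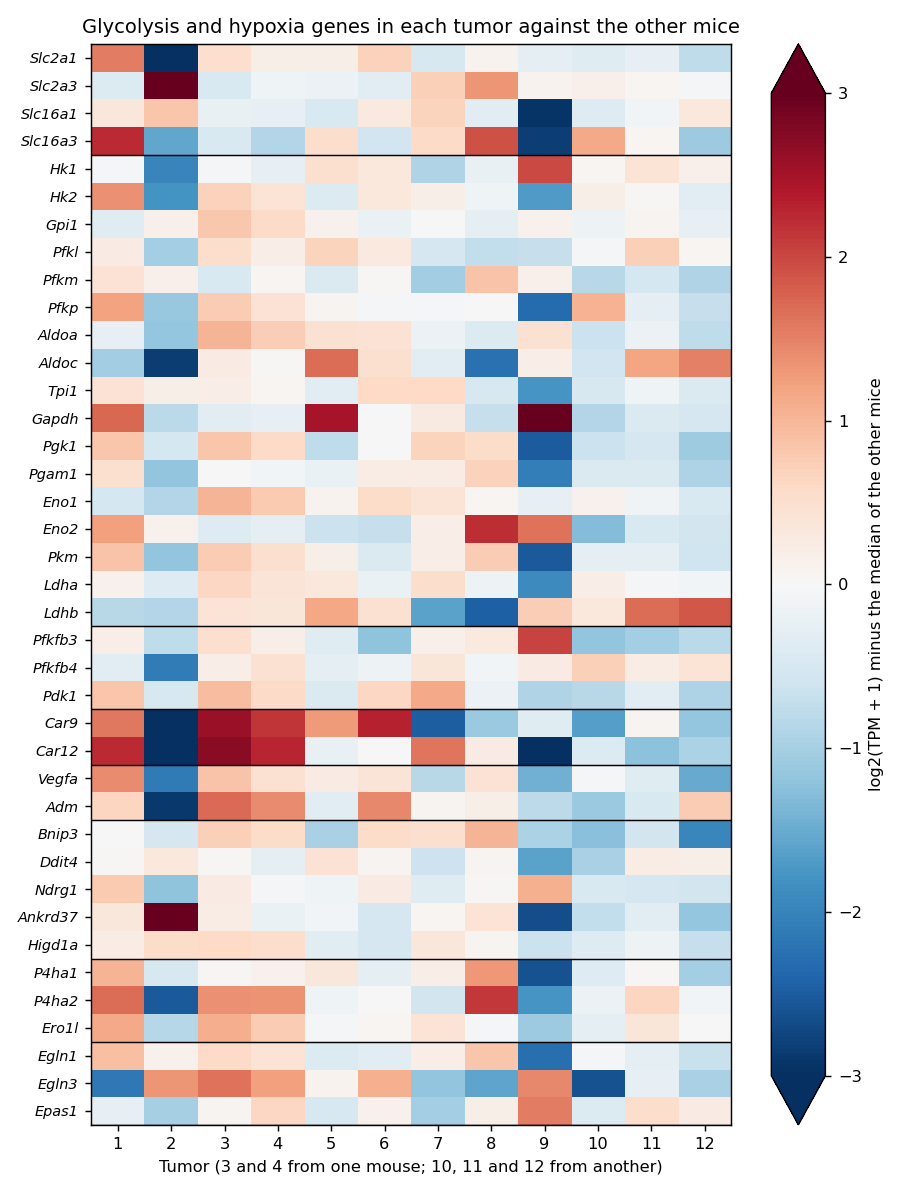
Heat map of the 39 genes (rows, grouped by role between black lines) in the 12 tumors (columns), coloured by log2(TPM + 1) minus the median of the other mice, from blue (lower) to red (higher), with colours ending at 3 in either direction. Slc2a3 and Ankrd37 are red in tumor 2, Gapdh, Hk1 and Pfkfb3 in tumor 9, and Car12 is blue in both.

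**Figure D5:**
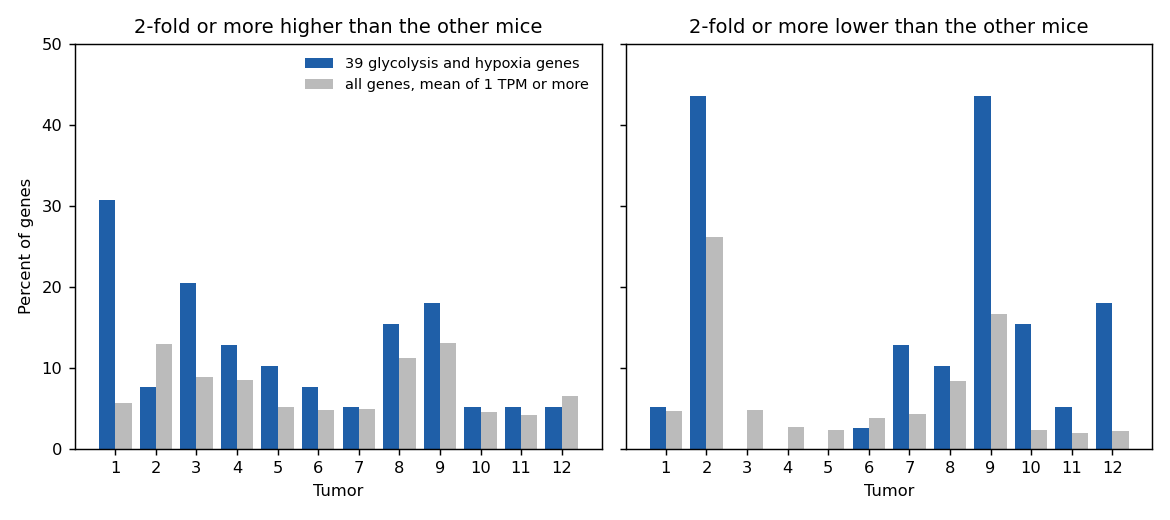
Percent of the 39 genes (blue bars) and of all 16802 genes with a mean of 1 TPM or more (grey bars) that lay 2-fold or more above (left) or below (right) the median of the other mice, for each of the 12 tumors. The widest gaps are for higher genes in tumor 1 (30.8% against 5.64%) and lower genes in tumor 9 (43.6% against 16.6%).

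Tumors of one mouse were compared directly. Between tumors 3 and 4 the median absolute difference over the 39 genes was 0.27 on the log2(TPM + 1) scale, against 0.19 over all genes, and no member was 2-fold or more apart (3.9% of all genes). Between tumors 10 and 11 the median was 0.42 against 0.32, with 7 members apart (17.9%, against 9.78%), led by Egln3, which was higher in tumor 11 by 2.36. Between tumors 10 and 12 it was 0.43 against 0.36, with 8 members apart (20.5%, against 11.9%), led by Slc16a3, which was -2.24 in tumor 12 relative to tumor 10. Between tumors 11 and 12 it was 0.38 against 0.22, with 6 members apart (15.4%, against 4.99%). Bnip3 was -1.41 and Car9 -1.25 in tumor 12 relative to tumor 11, whereas Adm was 1.22. Below its sister tumor 11, tumor 12 had 32 of 39 genes (82.1%, against 43.0% of all genes), with a median difference of -0.35 over the 39 genes and 0.05 over all genes. Tumor 4 likewise had 32 of 39 genes below tumor 3 (82.1%, against 55.0% of all genes), with medians of -0.25 and -0.04. In the other 2 pairs it was 12 of 39 genes (30.8%, against 51.5%) in tumor 11 below tumor 10 and 23 of 39 (59.0%, against 47.2%) in tumor 12 below tumor 10.

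Related pathways put these levels in context. Of 10 genes of the HIF machinery, 9 had a mean of 1 TPM or more. The highest was Egln2 (a further HIF prolyl hydroxylase) at 69.6 ± 22.6 TPM (SD, n = 9 mice) and the lowest Hif3a, at 0.435 TPM or less in every tumor. Arnt, the partner of the alpha subunits, had 57.3 ± 21.0 TPM, and Vhl, which recognises hydroxylated HIF, 32.0 ± 9.29 TPM, so both were present in every tumor, at 28.4 TPM or more and 15.8 TPM or more. Of 16 further isoforms of the glycolytic chain, 9 reached a mean of 1 TPM and 4 were listed at 0 in every tumor. The highest of these was Bpgm (a mutase of the red cell) at 52.4 ± 62.7 TPM with 217 TPM in tumor 8. Of genes chosen after their values were seen, the muscle enolase Eno3 had 294 TPM in tumor 2 and at most 20.6 TPM elsewhere, and the insulin-responsive transporter Slc2a4, which adipocytes and muscle also express, had 41.2 TPM in tumor 9 and at most 3.50 TPM elsewhere. Adipocyte markers summed to 199 TPM in tumor 9 and to 491 TPM in tumor 4, where Slc2a4 had 3.11 TPM. Skeletal muscle markers summed to 11.4 TPM in tumor 9 and to 62.8 TPM in tumor 2, where 3 of 5 were 2-fold or more higher. In tumors 3 and 4 they summed to 365 and 245 TPM. What part these markers had in the levels of Eno3 and Slc2a4 was not tested.

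A list of 24 other known HIF targets was read in the same way. Mif, a cytokine, was the highest at 698 ± 236 TPM (SD, n = 9 mice) and Nrn1, a neuronal growth protein, the lowest at 1.28 ± 2.61 TPM. In tumor 9, 15 of the 24 were 2-fold or more lower (16.6% of all genes) and 3 higher (13.1%), and in tumor 2, 10 were lower (26.1%) and 3 higher (13%). In tumor 8, 9 were higher (11.2%) and 5 lower (8.38%), and in tumor 1, 5 were higher (5.64%) and 3 lower (4.62%). Tumor 6 had 6 higher (4.75%) and 1 lower (3.78%). Of the sister tumors 4 and 3, tumor 4 had 6 higher (8.5%) and 0 lower (2.69%) and tumor 3 had 3 higher (8.83%) and 2 lower (4.82%), and the median difference over the 24 was 0.24 and 0.33 on the log2 scale. In tumors 5, 7, 10, 11 and 12, at most 3 of the 24 were higher (4.18% to 6.53% of all genes) and at most 2 lower (1.99% to 4.32%). The 7 genes of the pentose phosphate pathway, which draws on glucose phosphate, had means between 35 ± 8.53 TPM (Rpe) and 269 ± 103 TPM (Taldo1). The 9 genes of pyruvate entry to mitochondria lay between 10.5 ± 3.42 TPM (Pdp1, the phosphatase that reverses the action of Pdk1) and 140 ± 29.3 TPM (Pdha1, the dehydrogenase subunit that Pdk1 acts on). Of 6 genes of gluconeogenesis, 5 reached a mean of 1 TPM, with Pck2, the mitochondrial enzyme, highest at 23.0 ± 10.6 TPM and Pck1, the cytosolic one, lowest at 2.1 ± 3.22 TPM.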

How the data were processed

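Pieces of about 50 mg of 12 mammary tumors were homogenised, and stranded mRNA libraries were sequenced with 75-bp paired-end reads. The authors trimmed adapters with fastq-mcf, used HISAT2 for alignment to the GRCm38 transcriptome and obtained the deposited TPM with StringTie 2.1.6 (version per the submitters' processing notes). There is 1 TPM value per Ensembl gene and tumor. How transcripts were summed per gene is not given in the sources used here. Libraries were multiplexed for sequencing, values are given per tumor, and the labels give no batch. Each column was matched to a tumor by the animal and suffix in its label.

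From TPM, log2(TPM + 1) was computed and tumors of a mouse were averaged, giving 9 values per gene. The 13 contrasts used exact sign-flip permutation tests over mice, the 6 relations exact permutation of the pairings, each with Benjamini-Hochberg adjustment over its family at a threshold of 0.05. Tumors of one mouse and single tumors were compared without a test. Loci at 90% identity or more were found with BLAST 2.17.0 on GENCODE vM21 transcripts (sense strand). Alternatives were a pseudocount of 0.1, genes with a mean under 1 TPM left out, each tumor as a unit, 2 rescalings, leaving out each mouse, leaving out the mice of tumors 2 and 9, and, chosen after seeing the data, adding copies at 90% identity or more. The text names all 39 genes, both genes of each contrast and relation, the highest and lowest gene of each pathway list, Hif1a, Arnt, Vhl and Egln2, marker genes, and up to 5 genes farthest in either direction in each tumor; others, such as these copies and overlapping genes, were chosen after their values were seen. The genes, lists and tests were chosen with earlier results of these data known. The scripts were tested on simulated data. Scripts ran in Python 3.11.15 with scipy 1.17.1, numpy 2.4.6, matplotlib 3.10.9 and pandas 2.3.3.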

Additional observations from a re-analysis of the deposited data

Results flagged for a closer look

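For each of the 39 genes and 13 contrasts, the highest and the lowest of the 9 mice were examined for a gap to the nearest other mouse that is wide against the whole range (Dixon's criterion, which chance alone meets in about 1 in 20 groups). Of these 52 quantities 16 met it, of which 10 were in the mouse of tumor 9, 5 in the mouse of tumor 2 and 1 in the mouse of tumor 3. The 52 are not independent, because a contrast reuses genes that are also counted singly. The share of all genes that meet the criterion was not computed, so the count is not particular to these genes. Tumors 2 and 9 also stood apart over all genes, with 26.1% and 16.6% 2-fold or more lower and 13% and 13.1% higher. Levels are on the log2(TPM + 1) scale.

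In the mouse of tumor 9, the lowest values were those of Slc16a1 (2.53, nearest mouse 5.03), P4ha1 (3.15, nearest 5.28), Egln1 (3.31, nearest 5.16), Ddit4 (5.68, nearest 6.67), Pgk1 (7.14, nearest 8.86), Tpi1 (7.67, nearest 8.96) and Ldha (8.28, nearest 9.80). Pfkfb3 was the highest there at 7.57, with the nearest mouse at 5.88. Hk2 minus Hk1 was lowest at -5.68 (nearest -2.87) and Hif1a minus Epas1 at -0.52 (nearest 1.62).

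In the mouse of tumor 2, Slc2a1 was lowest at 3.84 (nearest 6.48) and Pfkfb4 at 1.76 (nearest 3.53), while Slc2a3 was highest at 4.43 (nearest 2.60) and Ankrd37 at 8.11 (nearest 5.00). Slc2a1 minus Slc2a3 was lowest there at -0.59 (nearest 4.33). Gpi1 was highest in the mouse of tumors 3 and 4, at 8.87 (nearest 8.35). Tumor 2 is the tumor with 1.38 TPM of epithelial and 4662 TPM of B lymphocyte markers, and what part these had was not tested.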

How the results depend on the processing

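No paired analysis was possible because there is only 1 group of samples, so no replicate number is shared between groups. The contrasts themselves pair 2 genes within each mouse. The 9 contrasts with an adjusted p under 0.05 kept their direction and their side of the threshold under all alternatives, as did Pearson's r of Vegfa with Slc2a1. Without the mice of tumors 2 and 9, Vegfa with Adm was 0.46 and Pgk1 with Ldha 0.24, both no longer past the threshold, Pecam1 with Epas1 was 0.093 and Slc16a1 minus Slc16a3 was -0.032, both reversed in sign. In the same setting 1 gene was lower in tumor 4 (3.45% of all genes), 2 lower in tumor 5 (3.01%), 1 higher in tumor 7 (3.92%) and 0 higher in tumor 10 (3.53%). With each tumor as a unit, Vegfa with Adm was 0.62 (adjusted p = 0.060 by permutation) and Egln3 with Ndrg1 was 0.050. Without the 100 highest genes, which moved the median of all genes by 0.33 to 0.41 (log2), 1 gene was lower in tumor 11. With all genes kept it was 2 (1.99% of all genes). The share of all genes was not computed without the 100 highest.

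With 1 mouse left out at a time, Car12 minus Car9 was 0.54 to 1.60, Egln1 minus Egln3 -0.28 to 0.45, Pfkp minus Pfkl -0.64 to -0.29, Egln3 with Ndrg1 -0.42 to 0.24, Mki67 with Ldha 0.025 to 0.77, Pgk1 with Ldha 0.38 to 0.93 and Vegfa with Adm 0.64 to 0.89. Vegfa with Adm was no longer past the threshold without the mouse of tumor 2 (0.64), 3 (0.81) or 9 (0.83), with adjusted p = 0.052 to 0.13 by permutation. Pgk1 with Ldha was not past it without that of tumor 9 (0.38, adjusted p = 0.51) or without that of tumor 2, 3, 7 or 10 (0.85 to 0.89, adjusted p = 0.050 to 0.074 by permutation). The cause was not tested. The depth is unknown, so no limit can be set on what a low TPM could show.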
